A study of Gallus gallus with 24 samples.

Results

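GPR183 is the receptor for oxysterols, 1 gene among the 15027 features (genes, or single spots without a gene name) measured in abdominal fat of growing chickens. It was represented by 1 spot on each of 24 arrays. It was chosen because it had one of the smallest p-values among named genes when the difference between 2 chicken lines was averaged over 6 ages. That average, and the value at each age that enters it, are therefore given as a description with no test. The dye effect and the differences between ages were not the measure of the choice and were tested. They share the estimate of spread with that average, and array weights leave them not fully independent of it. As deposited, the GPR183 ratio lay above 0 on 19 of 24 arrays, by 1.49-fold in the fitted mean, and it moved with the dyes by -0.99 on the log2 scale. Which line had more GPR183 transcript depends on how the deposited ratios run, which the files do not state.

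The birds were cockerels of a fat line (FL) and a lean line (LL), selected in opposite directions on abdominal fat weight and grown under one standard broiler protocol. They were 1, 3, 5, 7, 9 or 11 wk old, and no treatment was given beyond the selection. Each array held abdominal fat cDNA of 1 FL and 1 LL bird of one age, with 4 arrays per age. On 2 arrays of each age LL carried Alexa Fluor 647 and FL Alexa Fluor 555, and on the other 2 the dyes were exchanged. The design text calls the 4 replicates biological, so the spread covers birds and arrays together.

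GPR183 (also known as EBI2) is a receptor of the cell surface that couples to inhibitory G proteins. In mammals its main ligand is a dihydroxylated cholesterol made by the enzymes CH25H and CYP7B1 and removed by HSD3B7, and gradients of it place B cells, T cells and dendritic cells within lymphoid tissue. It is also carried by macrophages, a regular population of fat tissue. Adipose RNA holds adipocytes, vessels, stroma and immune cells together, so fewer cells of a type and less RNA per cell cannot be told apart. RefSeq's annotation of the assembly bGalGal1.mat.broiler.GRCg7b places GPR183 (gene ID 769212) on chromosome 1, within the span of UBAC2, with the related receptor gene GPR18 beside it. The build behind the array's annotation is not given in the sources used here, so no coordinates are printed. Neither UBAC2 nor GPR18 was among the named features.

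A value is the deposited log2 ratio of the 2 birds on an array. The titles name FL first, but whether the ratio is FL over LL is not stated. With LL on top all signs would be opposite. It is also not settled whether the ratio runs the same way on all arrays or follows the dyes. The sign of the GPR183 mean depends on this, as does that of 18 of the 33 other genes that were named by rule. The share over all features was not counted, so this says nothing particular about these genes. Over all spots, the mean r was 0.213 between arrays with the same dye assignment, with a lowest value of -0.179. Between arrays with exchanged dyes it was -0.170. The first results below take the ratios as deposited, and the reading turned by the dyes follows. A ratio holds no level of either bird, so the labelled tissue could not be checked against fat cell markers, and the signal over background of the GPR183 spot is unknown.

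The spot's name also rests on a choice. The platform annotation gives spots by block, row and column, and row and column were exchanged within blocks before names were used. Over 4745 pairs of different clones of one gene, the mean rank correlation within arrays was 0.00014 with names as given and 0.0548 after the exchange (above 0 on 13 and 23 of 24 arrays). Both checks are across spots, and spots are no independent replicates. GPR183 has no other spot that could be set beside this one.

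GPR183 lay above 0 on 19 of 24 arrays, with a fitted mean over ages of 0.57 (SE 0.0945), a 1.49-fold ratio. This was the largest mean of 6428 named genes and ranked 7 of all 15027 features, where the median size was 0.0331. With all arrays weighted equally the mean was 0.54 (SE 0.108). In this average, limma called 2 of 15027 features (0.0133%) at an adjusted p under 0.05, GPR183 among them, and nothing is read from this since the same contrast chose the gene. With equal weights 0 passed, and 1067 had an unadjusted p under 0.05. At an unadjusted p under 0.05 there were 1477 features (9.83%) in the weighted fit.

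At 1 wk the deposited log2 ratios of GPR183 were 0.46 and 0.42 on the arrays with LL in the 647 channel and -0.04 and 0.39 on those with FL in that channel. Of these 4 arrays 3 lay close together and 1 lay at 0. Their mean was 0.31 ± 0.23 (SD, n = 4).

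At 3 wk GPR183 stood at 1.10 and 1.70 with LL in the 647 channel and at 1.17 and 0.11 with FL there. All 4 arrays lay above 0, with the fourth far below the other three, and the mean of 1.02 ± 0.66 (SD, n = 4) was the highest of the ages.

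At 5 wk GPR183 stood at 1.39 and 0.90 with LL in the 647 channel and at -2.09 and -0.60 with FL there. The sign split exactly with the dyes at this age alone, and the mean was -0.10 ± 1.57 (SD, n = 4). The value of -2.09, on replicate 2, was the lowest of the 24 for this gene.

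At 7 wk GPR183 stood at 0.88 and 0.63 with LL in the 647 channel and at 0.51 and -0.03 with FL there, a mean of 0.50 ± 0.38 (SD, n = 4). At 9 wk the values were 1.43 and 0.69 against -0.08 and 0.42, a mean of 0.62 ± 0.63 (SD, n = 4). At 11 wk they were 1.52 and 1.31 against 0.44 and 0.35, a mean of 0.91 ± 0.60 (SD, n = 4). At these 3 ages, as at 1 wk and 5 wk, the arrays with LL in the 647 channel stood above those with FL there, without overlap. At 11 wk all 4 arrays lay above 0. Once the dye term was taken off they spread from 0.82 to 1.03, with an SD of 0.0940 against 0.364 to 1.08 at the other ages. That term, -0.99 for FL in the 647 channel minus LL there, is common to all ages. The same difference was -1.02 at 11 wk and -0.26 at 1 wk, where the correction raised the SD from 0.23 to 0.46. The corrected SDs thus also carry how near each age lay to the common term.

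**Figure D1:**
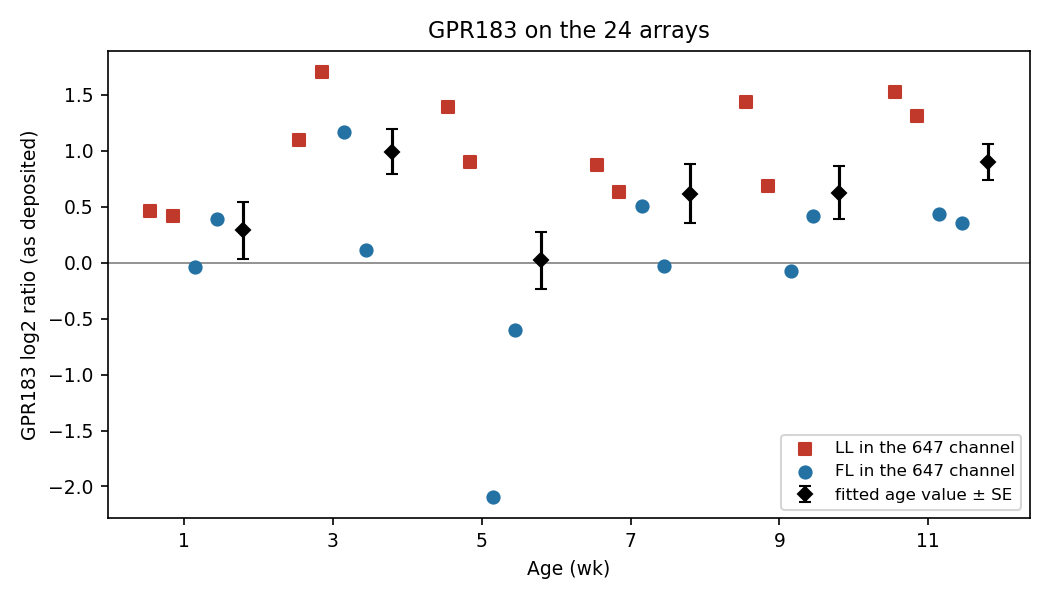
Deposited log2 ratio of GPR183 (vertical axis) on each of 24 arrays against age in weeks (horizontal axis, points set apart within an age). Squares are arrays with LL in the 647 channel, circles those with FL there, and diamonds the fitted age value with its SE. All 12 squares lie above 0, while the circles run from -2.09 to 1.17.

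On a single array GPR183 often ranked among the most extreme spots. With LL in the 647 channel it lay in the highest 1% of the array's spots on 7 of 12 arrays and in the highest 5% on 10 of 12. With FL in that channel it did so on 1 and 3 of 12 arrays. Its SD over the 24 arrays was 0.806, the 28th largest of 6428 named genes (median of all features 0.232). That SD includes the shift between dye orientations. With age and dye fitted, its weighted residual SD was 0.507, the 154th largest of named genes (median of all features 0.208). A large mean thus stood beside a large spread.

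The ages could be put in an order, but their differences did not pass. In the weighted fit with the dye term, 3 wk stood highest at 0.99 (SE 0.202), followed by 11 wk at 0.90 (SE 0.160), 9 wk at 0.63 (SE 0.237) and 7 wk at 0.62 (SE 0.263). Below them came 1 wk at 0.29 (SE 0.252) and 5 wk at 0.02 (SE 0.257). Neighbours in that order differed by 0.0091 to 0.33, each less than its standard error (0.258 to 0.365). The widest gap, 5 wk minus 3 wk, was -0.97 (SE 0.327, limma adjusted p 0.812).

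Tested over all 5 differences between ages at once, GPR183 had an F of 2.59 (limma unadjusted p 0.0565, adjusted p 1.00). No feature passed that test (0 of 15027, 0%), and 303 (2.02%) had an unadjusted p under 0.05. Of the 15 pairs of ages 3 had an unadjusted p under 0.05 for GPR183 and 0 an adjusted one. The linear trend was 0.04 per week (SE 0.0257, limma adjusted p 0.999). The mean of 1, 3 and 5 wk minus that of 7, 9 and 11 wk was -0.28 (SE 0.189, limma adjusted p 0.999). Neither contrast called any feature (0%), with 432 (2.87%) and 361 (2.4%) at an unadjusted p under 0.05. The early minus late value was -0.13 without 5 wk replicate 2 and -0.42 without 5 wk replicate 1. The trend was 0.02 without 1 wk replicate 3 and 0.06 without 1 wk replicate 4.

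The ratio of GPR183 differed between the dye orientations, and this difference passed its test. With LL in the 647 channel its mean was 1.04 ± 0.44 (SD, n = 12) and all 12 values lay above 0, between 0.42 and 1.70. With FL in that channel its mean was 0.05 ± 0.80 (SD, n = 12), from -2.09 to 1.17, with 7 values above 0 and 5 below. The 2 sets of arrays overlapped as a whole, but within ages the arrays with LL in the 647 channel were the higher pair without overlap at 5 of 6 ages, as were 5.63% of features at 5 ages or more. All 12 arrays with LL in the 647 channel were of one sign for 2.64% of features.

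The dye effect, FL in the 647 channel minus LL there, was -0.99 (SE 0.181, limma adjusted p 0.000349). Dye effects were common on these arrays, passing for 5034 features (33.5%), and that of GPR183 was the 35th in size among 6428 named genes. An exact permutation of the orientations within ages gave a two-sided p of 0.000171 (8 of 46656 assignments as large). The smallest p it can give is 4.29e-05. By age the difference ran from -0.26 at 1 wk to -2.49 at 5 wk and was below 0 at all 6 ages. Without the 4 arrays of 5 wk it was -0.83 (SE 0.146, limma adjusted p 0.000386).

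The same 24 values read the other way exchange these roles. If each ratio was 647 over 555, turning the signs by the dyes makes the unweighted line component -0.49 in place of 0.54, with 17 of 24 arrays below 0. On the same scale the dye component goes from -0.49 to 0.54. This scale is the shift per array, not the full difference between orientations given above as the dye effect. The fitted mean over ages was then -0.49 (SE 0.0994). By age the turned value was -0.14 (SE 0.251) at 1 wk, -0.35 at 3 wk, -1.06 at 5 wk, -0.34 at 7 wk, -0.57 at 9 wk and -0.47 at 11 wk. The line component is thus of similar size under both readings and of opposite sign, so these files do not settle in which line GPR183 transcript was higher. In the turned reading 5655 of 15027 features were called in the mean over ages, 23 in the dye effect and 884 in the difference among ages. As deposited these counts were 2, 5034 and 0. Which reading holds was not tested. GPR183 was among the 5655 features called in the turned mean over ages (limma adjusted p under 0.05). By p it was 622nd among named genes there. The turned mean stands for the dye effect of the ratios as deposited, so this is no second result.

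**Figure D2:**
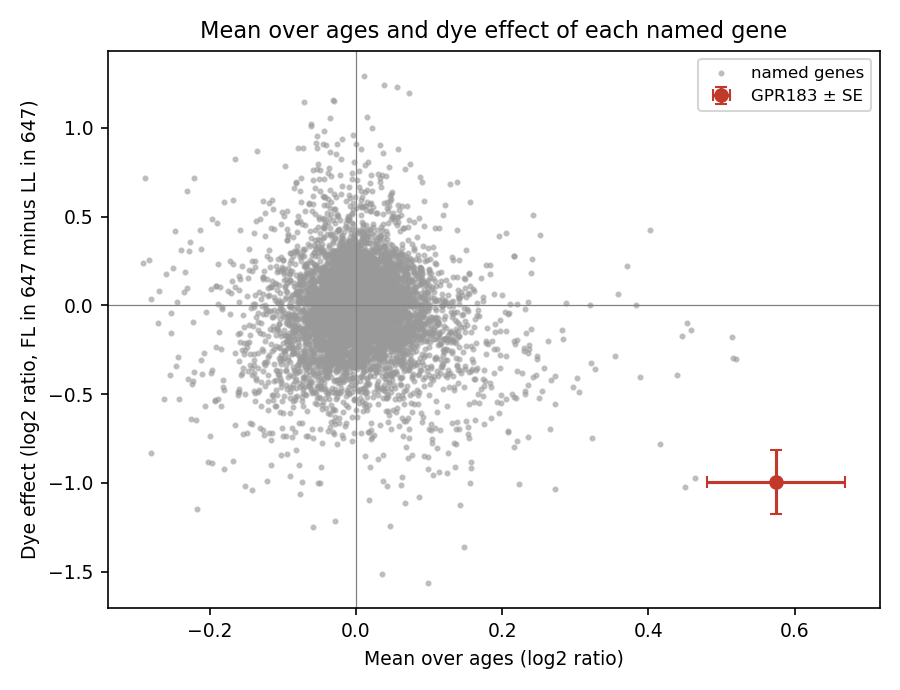
Mean over ages (horizontal axis) and dye effect (vertical axis), both as log2 ratios, for each of 6428 named genes, with GPR183 and its SEs marked. GPR183 lies at 0.57 and -0.99, far from 0 on both axes, and has the largest mean of the named genes.

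Single arrays shifted the size of the GPR183 mean but not its sign as deposited. Over the 24 omissions of 1 array it ran from 0.50 without 5 wk replicate 1 to 0.65 without 5 wk replicate 2. The count of features called in this average ran from 0 to 154, the latter without 5 wk replicate 2. No call of GPR183 is read from these fits, since the same contrast chose the gene. Leaving out whole ages gave 0.49 without 3 wk, 0.51 without 11 wk and 0.68 without 5 wk.

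The values at single ages depended on single arrays more than the mean did. The 5 wk value was 0.45 without replicate 2 and -0.39 without replicate 1. The 1 wk value was 0.01 without replicate 4 and 0.52 without replicate 3, and the 7 wk value 0.25 without replicate 2 and 0.89 without replicate 3. The 3 wk value was 0.81 without replicate 2 and 1.25 without replicate 4, the 9 wk value 0.46 without replicate 1 and 0.72 without replicate 3. At 11 wk the range was narrow, from 0.87 to 0.94.

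**Figure D3:**
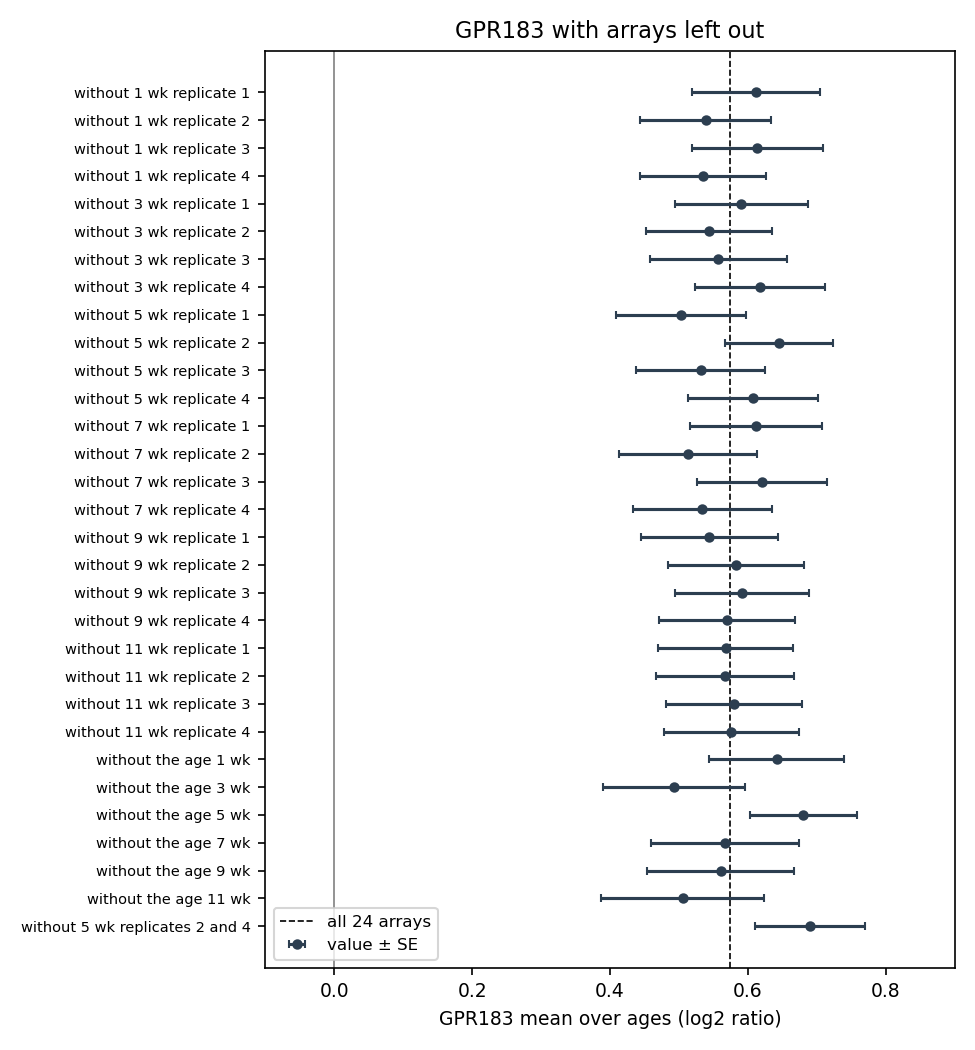
Fitted mean over ages of GPR183 (log2 ratio, with SE, horizontal axis) after leaving out each array, each age, or both 5 wk arrays with FL in the 647 channel. All values lie above 0, and among the single arrays the omission of 5 wk replicate 1 (0.50) and replicate 2 (0.65) marks the ends.

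The array of 5 wk replicate 2 was examined around the GPR183 spot. GPR183 ranked 27th in size of 19200 spots on it, and 20 spots lay lower. Within its print block of 400 spots 2 lay lower, and the block's median was -0.25. The 8 spots around GPR183 ran from -1.67 to 0.10 on that array. The lowest of them carries GSN, the actin-severing protein gelsolin, whose 24 values correlated with those of GPR183 at r = 0.72 as deposited. This includes the dye pattern they share (0.53 with LL in the 647 channel and -0.10 with FL there for that spot). Over all arrays the 8 spots had means between -0.05 and 0.22, against 0.54 for GPR183. GSN was singled out after its values were seen. Whether spots influence each other was not tested.

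CH25H and CYP7B1, the enzymes that make its ligand, were not among the named features. Of 9 listed oxysterol enzymes 5 were measured. HSD3B7, which in mammals inactivates the ligand, stood at 0.02 (SE 0.0422), and CYP27A1, the sterol 27-hydroxylase, at -0.04 (SE 0.0386). CYP46A1, the cholesterol 24-hydroxylase, stood at -0.20 (SE 0.0818), CYP39A1, an oxysterol 7-alpha-hydroxylase, at 0.02 (SE 0.0617) and HSD11B1L at 0.02 (SE 0.0435). The signs of HSD3B7, CYP39A1 and HSD11B1L turned when single arrays were left out. CYP46A1 stood at -0.11 without 3 wk replicate 4, and CYP27A1 at -0.02 without 5 wk replicate 3. None passed over all features, and CYP46A1 alone had an unadjusted p under 0.05, against 4.34% of features below 0 at that level. The list's median was 0.0151, against 0.0025 over all features.

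The sterol-sensing and export list, with 20 of 28 genes measured, had 11 above 0 and a median of 0.0078. Over all features 52% lay above 0 and the median was 0.0025. No member passed, adjusted or unadjusted. NR1H3, the nuclear oxysterol receptor LXR-alpha, stood at 0.10 (SE 0.0485), and SREBF2, the transcription factor of sterol synthesis, at -0.09 (SE 0.0473). NR1H3 stood at 0.02 without 7 wk replicate 2.

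Inhibitory G protein signalling and receptor regulation had 21 of 36 genes measured, 13 above 0 (52% of all features) and a median of 0.0095. None passed, adjusted or unadjusted. The G protein regulator RGS4 stood at 0.09 (SE 0.0453, and 0.04 without 7 wk replicate 2) and the small GTPase RHOA at -0.22 (SE 0.113, and -0.14 without 1 wk replicate 1). Of other guidance receptors of leukocytes 3 of 34 were measured: LPAR4, a lysophosphatidic acid receptor, at 0.07 (SE 0.0416), LPAR6 at 0.03 (SE 0.0682) and the chemokine scavenger ACKR2 at -0.08 (SE 0.0344). Of these ACKR2 alone had an unadjusted p under 0.05, against 4.34% of features below 0 at that level. LPAR4 stood at 0.02 without 5 wk replicate 3. Chemokine ligands had 2 of 6 measured genes above 0, with CXCL12, which attracts CXCR4-bearing cells, at 0.12 (SE 0.0391, above 0 on 19 of 24 arrays) and CCL26 at -0.11 (SE 0.0824). CCL26 stood at -0.07 without 3 wk replicate 3.

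Markers of the immune cells that carry GPR183 in mammals were described by list, beside 52% of all features above 0. B cell genes had 5 of 7 above 0 with a median of 0.0195. The highest was SWAP70, a signalling protein of B cells, at 0.24 (SE 0.0639, above 0 on 18 of 24 arrays, dye effect 0.51). The costimulatory receptor CD40 stood at 0.04 (SE 0.0269). T cell genes had 1 of 3 above 0 with a median of -0.0552, with IL2RG at -0.10 (SE 0.0518) and CD3E of the T cell receptor complex at -0.06 (SE 0.0447). CD3E stood at -0.02 without 1 wk replicate 4. Macrophage and dendritic cell genes had 9 of 16 above 0 with a median of 0.0074. The cytokine IL1B stood at 0.14 (SE 0.0512, above 0 on 13 of 24 arrays, dye effect -0.78) and the complement chain C1QB at 0.11 (SE 0.0543). The other complement chains listed, C1QA at -0.03 (SE 0.0317) and C1QC at -0.0030 (SE 0.0815), lay below 0. C1QB stood at 0.06 without 7 wk replicate 2. General leukocyte genes had 4 of 10 above 0 with a median of -0.0303. They ran both ways, from ARHGDIB at 0.19 (SE 0.0409, above 0 on 21 of 24 arrays) and NCKAP1L at 0.18 (SE 0.0452) to LCP1, an actin bundler, at -0.10 and DOCK8 at -0.13.

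Across these 4 marker lists and the chemokines, 0 genes passed limma's adjusted p of 0.05 with all arrays. At an unadjusted p under 0.05, 1 B cell gene, 2 macrophage and dendritic cell genes, 2 leukocyte genes and 1 chemokine were above 0 (5.49% of all features) and 2 leukocyte genes below 0 (4.34%). ARHGDIB alone of these passed without 5 wk replicate 2, 7 wk replicate 1 or 7 wk replicate 3. In these fits 154, 8 and 8 of 15027 features passed. Many of the defining B and T cell genes, such as CD79B, PAX5, CD4 and CD8A, were not among the named features.

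**Figure D4:**
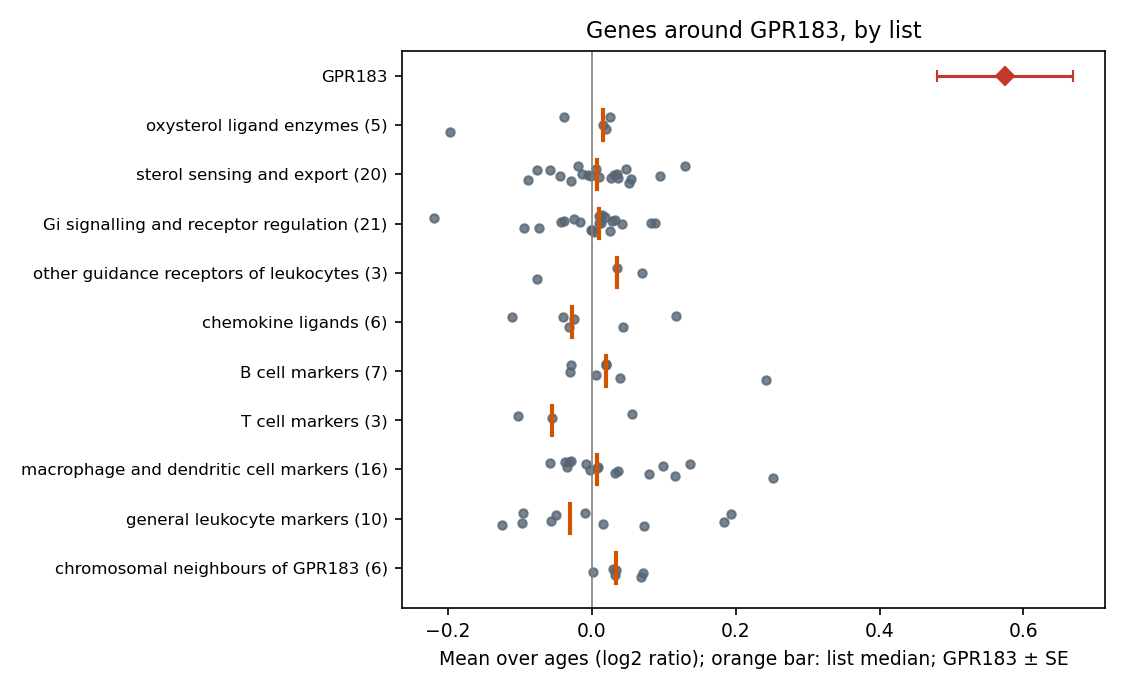
Mean over ages (log2 ratio, horizontal axis) of each measured gene in 10 lists (rows, number of measured genes in brackets), with list medians as bars and GPR183 with its SE in the top row. The listed genes lie between -0.22 and 0.25, and GPR183 lies at 0.57.

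The genes next to GPR183 on chromosome 1 were also measured in part. All 6 measured neighbours of 16 listed lay above 0, as did 52% of all features, with a median of 0.0330 and a highest value of 0.07 for TM9SF2, a membrane protein of the secretory pathway. CLYBL, a mitochondrial citramalyl-CoA lyase, stood at 0.03 (SE 0.0289) and stood at 0.02 without 7 wk replicate 4. With the ratios turned by the dyes TM9SF2 stood at -0.0844 and CLYBL at -0.0270, so these signs hold for the ratios as deposited only. None had an unadjusted p under 0.05.

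Whether GPR183 moved with these lists from array to array was tested on dye-corrected values over the 24 arrays, for 10 lists, with 100000 permutations. The permutations ran over all 24 arrays without regard to age, dye orientation or array weight, so differences between ages that both share enter these values. No list passed after Benjamini-Hochberg adjustment over the 10. The B cell list had a Pearson r of 0.44 (permutation p 0.0390, adjusted 0.170) and a Spearman rho of 0.49 (permutation p 0.0158, adjusted 0.0791). Its r was 0.32 without the 2 arrays farthest from the median of GPR183 (3 wk replicate 2 and 5 wk replicate 2), and 0.49 and 0.58 within the arrays with LL and with FL in the 647 channel.

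The G protein signalling list had an r of 0.40 (permutation p 0.0510, adjusted 0.170) and a rho of 0.52 (permutation p 0.0100, adjusted 0.0791). Its r was 0.42 without the 2 farthest arrays, and 0.55 and 0.35 within orientations. The macrophage and dendritic cell list had an r of 0.48 (permutation p 0.0308, adjusted 0.170) and a rho of 0.31 (permutation p 0.143, adjusted 0.238). Its r fell to 0.04 without the 2 farthest arrays, so that relation rested on them together. Without 5 wk replicate 2 alone its r was 0.38. Within the arrays with LL and with FL in the 647 channel its r was 0.32 and 0.54. The mean ratio of this list was lowest of the 24 arrays on 5 wk replicate 2, at -0.229, where GPR183 was lowest as well. It was almost as low on 1 wk replicate 4, at -0.227, where GPR183 stood at 0.39. The general leukocyte list had an r of -0.10 (permutation p 0.628, adjusted 0.709) and a rho of -0.11 (permutation p 0.622, adjusted 0.691). The oxysterol enzymes had an r of 0.09 (permutation p 0.638, adjusted 0.709) and a rho of 0.23 (permutation p 0.290, adjusted 0.408). The part of immune cell content in the GPR183 ratios was not tested.

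The named genes whose dye-corrected ratios most resembled those of GPR183 over the 24 arrays were SPARC, RAB7A, ISLR, MRPS6 and COL6A3, out of 6401 with a value on every array. SPARC, a collagen-binding matrix protein, correlated at r = 0.83 (rho 0.71) and RAB7A, a GTPase of late endosomes, at 0.79 (rho 0.51). ISLR, a secreted protein of stromal cells, stood at 0.77 (rho 0.66), MRPS6, a mitochondrial ribosomal protein, at 0.77 (rho 0.60) and COL6A3, a collagen VI chain, at 0.75 (rho 0.67). These values are a description, since the genes were taken from the end of the list and share all their arrays with GPR183.

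The order of these genes changed without one array, more for some than for others. On 5 wk replicate 2 the dye-corrected ratio was -1.60 for GPR183, -1.91 for SPARC, -1.09 for RAB7A, -0.92 for COL6A3, -0.72 for MRPS6 and -0.32 for ISLR. Without that array the r was 0.64 for ISLR and COL6A3 (ranks 10 and 11), 0.62 for MRPS6 (rank 26), 0.60 for SPARC (rank 39) and 0.58 for RAB7A (rank 53). Thus 0 of these 5 genes stayed among the 5 most alike. Their places were taken by CALD1, GPX3, RBM10, APP and CCNI, with a highest r of 0.74. With Spearman's rho, 1 of the 5 stayed, and with age means taken off 2 did. As means over ages SPARC stood at 0.11 (SE 0.0685), RAB7A at 0.28 (SE 0.0710), ISLR at 0.16 (SE 0.0373), MRPS6 at 0.09 (SE 0.0543) and COL6A3 at 0.46 (SE 0.106). Without 5 wk replicate 1 SPARC stood at 0.06, and without 7 wk replicate 4 MRPS6 stood at 0.05.

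At the other end were TWF2 (r = -0.74), UBAC1 (-0.73), SPINT1 (-0.73), VSNL1 (-0.73) and SPATA13 (-0.72). Without 5 wk replicate 2, TWF2, an actin-binding twinfilin, and SPINT1, a protease inhibitor, stood at -0.26 and -0.21. UBAC1, VSNL1, a neuronal calcium sensor, and SPATA13 stood at -0.63, -0.61 and -0.60. The ratios of TWF2 and SPINT1 on that array were both 1.69, opposite to GPR183. As means over ages UBAC1 stood at -0.20 (SE 0.0554) and the other four between -0.05 and 0.06. Without 5 wk replicate 1, SPATA13 stood at -0.0043, TWF2 at 0.10 and SPINT1 at 0.03, the opposite sign to its mean of -0.01. Without 5 wk replicate 2, TWF2 stood at 0.0038 and SPINT1 at -0.06, and without 7 wk replicate 2, VSNL1 stood at -0.02.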

How the data were processed

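The authors deposited log2 ratios of 19200 spots on each of 24 arrays that carried both lines. The tools were R 2.11.1 and limma 3.4.5, per the submitters' processing notes. How background was corrected, how arrays were normalized and which way the ratio runs is not given in the sources used here. That the log has base 2 is assumed, as limma's default. The medians of the arrays ran from -0.0561 to 0.0189, and their SDs from 0.209 to 0.435. No scanner intensities were used, so the number of arrays limits the precision.

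The annotation gave 10601 spots 1 gene symbol and 8599 none, and its gene ID for GPR183 matched the RefSeq table. The 123 spots of 2 clones printed on more than 20 spots were left out. Spots of one symbol were averaged, and features needed values on 3 arrays of each age. This gave 15027 features, 6428 named. The fit used R 4.3.3 and limma 3.58.1, with 6 age levels, a dye term and array weights (0.403 to 3.32), and p-values were adjusted by Benjamini-Hochberg over all features. The fit was also run on simulated independent noise with added effects, which cannot bear on how the deposited ratios run.

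Named were GPR183, all measured oxysterol enzymes, the 2 genes of smallest p in each other list, and the 5 genes most and least like GPR183. LPAR6, C1QA, C1QC, LCP1, DOCK8, GSN and the genes replacing the most alike were named after their values were seen. The gene, the lists and the exchange of row and column were chosen with earlier results of these data known. The permutation of orientations, the relations to lists, the pairs of ages, the surrounding spots and the omission of 2 arrays of 5 wk were added later. Alternatives changed weights, dye term, signs, replicate block, centring, scale, print blocks, spot averaging, names and arrays.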

Additional observations from a re-analysis of the deposited data

Results flagged for a closer look

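At 1 wk the deposited GPR183 ratio of replicate 2, -0.0379, stood apart from the other 3 arrays, which lay between 0.39 and 0.46. Its gap to the nearest of them was 0.863 of the group's range, above Dixon's limit for 4 samples. Chance marks about 1 group in 20. After the dye term was taken off, no array of that age stood apart by this measure, and no pair of ages differed by a test of the difference.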

How the results depend on the processing

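As deposited, the mean over ages of GPR183 stayed between 0.49 and 0.68 with equal weights, no dye term, a replicate block, centring, scaling, centred print blocks, single spots or whole ages left out, and was 0.69 without 5 wk replicates 2 and 4. Leaving out 1 array gave 0.50 to 0.65. The corresponding ranges were 0.01 to 0.52 at 1 wk, 0.81 to 1.25 at 3 wk, -0.39 to 0.45 at 5 wk, 0.25 to 0.89 at 7 wk, 0.46 to 0.72 at 9 wk and 0.87 to 0.94 at 11 wk. For the dye effect the range was -1.06 to -0.90, for the trend 0.02 to 0.06, for early minus late -0.42 to -0.13, for the F over ages 1.85 to 4.05 and for list genes called 0 to 1. No setting with ratios as deposited called GPR183 in a contrast between ages.

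With ratios turned by the dyes the mean became -0.49 and the age values -0.14 (1 wk), -0.35 (3 wk), -1.06 (5 wk), -0.34 (7 wk), -0.57 (9 wk) and -0.47 (11 wk). The trend was then -0.0232 (limma adjusted p 0.736) and the dye effect 1.17 (SE 0.197). In this reading the dye effect stands for the deposited mean over ages that chose the gene, so it is given with no test. In the mean over ages 33 list genes were called, beside 5655 of all 15027 features. In that reading 18 of the 33 genes named by rule beside GPR183 had the opposite sign. Among them SPARC stood at -0.27, RGS4 at -0.16, HSD11B1L at -0.12, MRPS6 at -0.11, CCL26 at 0.11, ACKR2 at 0.0038, IL1B at -0.40, ARHGDIB at -0.10, RAB7A at -0.0668, ISLR at -0.13, COL6A3 at -0.0931 and UBAC1 at 0.26. With names as given, a different spot carried the name GPR183, with a mean of 0.05, age values of -0.11 (3 wk), 0.0591 (7 wk) and -0.24 (11 wk), a trend of -0.0161 and a dye effect of -0.10 (limma adjusted p 0.615). IL1B then stood at -0.0341, ARHGDIB at -0.0104 and COL6A3 at -0.0181. The 11 wk value was 0.78 without the dye term and 1.04 with arrays scaled. Without 5 wk, or without its replicates 2 and 4, 1 list gene (ARHGDIB) was called, among 55 and 182 of 15027 features. The causes were not tested.

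Replicate numbers are shared between ages but stand for different birds, and odd and even numbers mark the dye orientation. With a replicate block the GPR183 mean was 0.56, the F over ages 2.66 and the dye effect -1.04, and features called in the mean over ages went from 2 to 0. Of 24 arrays 15 correlated best with their own number once age means were taken off, where the shared dye orientation enters. The count was 0 once the dye term was off too. Taking that term off lowers the correlation between arrays of the same orientation by construction. Neither count can therefore show whether the numbers pair arrays.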
